A study of Sus scrofa domesticus with 11 samples.

Results

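TFCP2L1, TFCP2, UBP1, GRHL1 and GRHL2 encode transcription factors that share the CP2 DNA-binding domain. They were taken by gene symbol from the deposited liver table, where all 5 were found among 22029 genes, each under 1 gene identifier. The set was chosen by the difference of TFCP2L1 between the groups, since that gene was lower with SEFA-6179 in these same libraries and passed the test over all genes. The TFCP2L1 difference between the groups is therefore given as a description. The other members came in as its relatives. The table assigns 7 genes to the CP2 family: the 5 members, GRHL3, and a gene without a symbol, ENSSSCG00000017507.

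The livers came from Yorkshire piglets born preterm and fed by vein, and were collected on day of life 15. In the SEFA-6179 group (5 libraries) the piglets received 48 mg/kg of SEFA-6179, of which only the code name is used here. In the MCT group (6 libraries) they received the vehicle at 3 ml/kg, where MCT stands for medium-chain triglyceride. All libraries shared breed, preterm birth, parenteral nutrition and age. Each library was taken as 1 animal, and no source used here says whether animals were pooled or gives their sex and litter.

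The CP2 family has a pair of branches. The CP2-like branch holds TFCP2 and UBP1, which are made in most tissues and bind DNA as multimers, and TFCP2L1, which is far more restricted. TFCP2L1 is known for its part in the self-renewal circuit of naive embryonic stem cells and in distal tubules and collecting ducts of the kidney. The grainyhead-like branch holds GRHL1, GRHL2 and GRHL3, regulators of epithelial barriers, junctions and desmosomes. In liver, epithelial programmes of this kind are mainly studied in bile duct cells, while hepatocytes, the bulk of the tissue, carry E-cadherin (CDH1) as well.

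Total counts ran from 15974977 to 23416071 per library. Hepatocyte markers such as ALB and APOB summed to between 72809 and 192123 CPM (counts scaled to the library total, with TMM normalization) in every library, which fits the labelled tissue. Over all genes, edgeR called 30 of 13671 tested genes at an adjusted p below 0.05, which is 0.219%, with 14 of them lower in SEFA-6179 (0.102%). The groups did not overlap in 1.49% of tested genes, with all SEFA-6179 libraries lower in 0.819% and all higher in 0.673%. Of the 5 members, 4 passed the filter on low counts and 1, TFCP2L1, was called. Since that call chose the gene, nothing is read from this count. In the authors' deposited table TFCP2L1 was the 1 member with an adjusted p below 0.05. That value comes from the same libraries and adds no support.

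TFCP2L1 lies on chromosome 15 from 30072172 to 30137094 on the plus strand, in the coordinates of the deposited table, and no other gene of the table overlaps it. With MCT its level was 12.95 CPM in replicate 1, 12.94 in replicate 2, 32.3 in replicate 3, 16.2 in replicate 4, 8.20 in replicate 5 and 27.7 in replicate 6. With SEFA-6179 it was 4.14 CPM in replicate 1, 2.95 in replicate 2, 3.26 in replicate 3, 5.42 in replicate 4 and 4.99 in replicate 5. All 5 SEFA-6179 libraries lay below the lowest MCT library, so the groups did not overlap. The means were 4.15 ± 1.07 CPM (SD, n = 5) and 18.4 ± 9.46 CPM (SD, n = 6). The fitted difference was a log2 fold change of -2.15 ± 0.34 (SE), or 4.43-fold lower in SEFA-6179. These values rest on 51 to 91 reads per SEFA-6179 library and 146 to 653 reads per MCT library. In bulk tissue, fewer cells that express a gene and less of its RNA per cell cannot be told apart.

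The spread of TFCP2L1 was not alike in the groups. Among MCT libraries the highest was 3.94-fold above the lowest, and the highest SEFA-6179 library 1.84-fold. On the log2 CPM scale the SD was 0.74 with MCT and 0.37 with SEFA-6179, a description that was not tested. MCT replicates 3 and 6, with the most TFCP2L1, were the MCT libraries with the lowest totals, 16598154 and 15974977 counts, and the part of depth in this order was not tested. Reads of the Y-linked gene EIF1AY were present in 2 SEFA-6179 libraries (replicates 1 and 4) and 4 MCT libraries (replicates 1, 3, 4 and 6), so it too was unevenly spread. Among libraries with EIF1AY reads TFCP2L1 was at 4.14 to 5.42 CPM with SEFA-6179 and 12.95 to 32.3 CPM with MCT. Among libraries without them it was at 2.95 to 4.99 CPM and 8.20 to 12.94 CPM. Since the groups do not overlap in TFCP2L1, the value that chose it, nothing is read from this split. The sets hold 2 to 4 libraries a group. With EIF1AY detection as a covariate the log2 fold change was -1.88 and edgeR's adjusted p was 0.0507, which no longer passed.

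The call of TFCP2L1, made after adjustment over all genes, also changed when single libraries were left out. It was kept in 6 of 11 edgeR fits that each left out 1 library. It was lost without SEFA-6179 replicate 1, 2 or 5 (edgeR adjusted p of 0.0626, 0.0559 and 0.0987) and without MCT replicate 1 or 4 (0.0763 and 0.0742). The size of the difference moved little, with log2 fold changes between -2.30 and -1.91. Without MCT replicate 1, for example, it was -2.23 ± 0.35 (SE). The number of genes called over all genes, 30 in the main fit, was 9, 21 and 0 without SEFA-6179 replicate 1, 2 or 5. It was 1 and 0 without MCT replicate 1 or 4. The part of the adjustment in the lost calls was not tested. These fits reuse the libraries whose difference chose TFCP2L1, so its kept calls add no support to it.

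**Figure D1:**
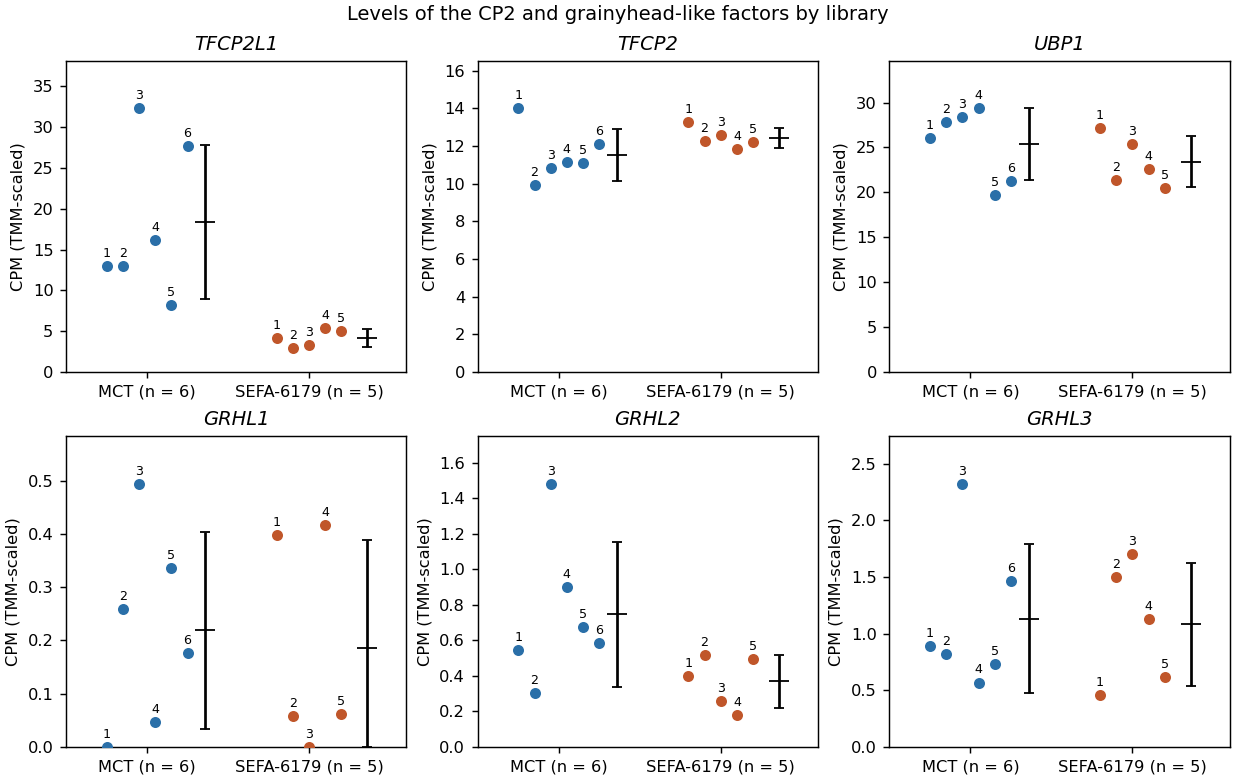
Level of each factor in CPM (TMM-scaled, linear axes from 0) in 6 MCT and 5 SEFA-6179 libraries. Points are libraries, numbered by replicate, and bars show the mean ± SD, cut at 0 for GRHL1. TFCP2L1 is the panel in which the groups do not overlap. MCT replicate 3 is the highest library for TFCP2L1, GRHL1, GRHL2 and GRHL3.

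TFCP2 and UBP1, the broadly expressed relatives, showed no such separation. TFCP2, also called LSF, lies on an unplaced scaffold from 226590 to 290228. It was at 13.3, 12.2, 12.6, 11.8 and 12.2 CPM in SEFA-6179 replicates 1 to 5, and in MCT its lowest, median and highest values were 9.91, 11.1 and 14.0 CPM. The SEFA-6179 values fell within the MCT range. Its log2 fold change was 0.11 ± 0.13 (SE), with a 95% interval from -0.18 to 0.40 and an adjusted p of 0.817 by edgeR. The interval leaves room for a level 1.13-fold lower to 1.32-fold higher in SEFA-6179.

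UBP1, known as LBP-1a and a binder of viral and steroid enzyme promoters, lies on chromosome 13 from 19204947 to 19276969. Its levels were 27.2, 21.3, 25.4, 22.6 and 20.5 CPM in SEFA-6179 replicates 1 to 5. In MCT the lowest, median and highest were 19.7, 26.9 and 29.3 CPM, so the groups overlapped throughout. The log2 fold change was -0.12 ± 0.14 (SE), with a 95% interval from -0.42 to 0.18 and an edgeR adjusted p of 0.812. UBP1 overlaps FBXL2 on the opposite strand, which had a mean of 72.1 counts, and no source used here gives the strand setting of the counting.

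Levels of different genes can be set side by side only per length, so the order of the members was read from the deposited FPKM. With MCT, UBP1 stood highest at 4.88 ± 0.75 FPKM (SD, n = 6). TFCP2L1, at 2.39 ± 1.22, and TFCP2, at 2.02 ± 0.25, did not differ beyond their spread: TFCP2L1 was above TFCP2 in MCT replicates 3, 4 and 6 and below it in the other 3. With SEFA-6179 the order was UBP1 at 4.48 ± 0.55 FPKM (SD, n = 5), TFCP2 at 2.17 ± 0.10 and TFCP2L1 at 0.54 ± 0.14, without overlap between neighbours. The ratio of TFCP2L1 to TFCP2 ran from 0.55 to 2.23 over MCT libraries and from 0.18 to 0.34 over SEFA-6179 libraries.

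Within the summed FPKM of UBP1, TFCP2 and TFCP2L1, TFCP2L1 made up 15.7% to 36.8% with MCT and 5.67% to 9.94% with SEFA-6179. The sum itself ran from 6.87 to 11.5 FPKM with MCT and from 6.57 to 8.10 FPKM with SEFA-6179. These shares carry the TFCP2L1 difference that chose the gene and add no support to it. The ratio of UBP1 to TFCP2, which does not involve TFCP2L1, overlapped between the groups, at 1.92 to 3.08 with MCT and 1.84 to 2.24 with SEFA-6179.

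**Figure D2:**
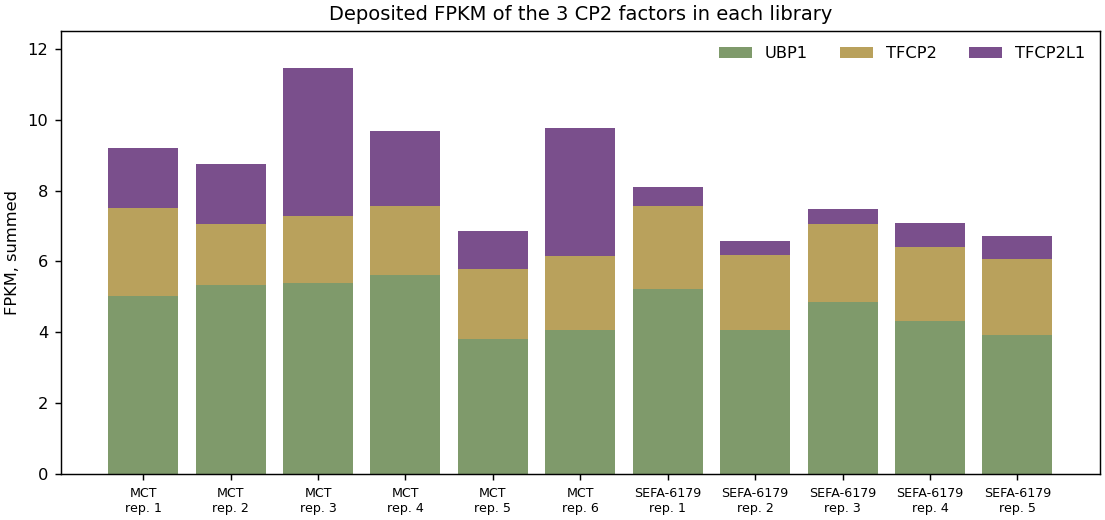
Deposited FPKM (fragments scaled to gene length and library depth) of UBP1, TFCP2 and TFCP2L1, stacked for each of the 6 MCT and 5 SEFA-6179 libraries. The TFCP2L1 segment takes up to 36.8% of an MCT bar and at most 9.94% of a SEFA-6179 bar, while the UBP1 and TFCP2 segments are of similar height in both groups.

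The grainyhead-like factors were near the limit of detection. GRHL2, which maintains epithelial junction genes such as CDH1 and CLDN4, lies on chromosome 4 from 35371136 to 35564919. It had 7, 9, 5, 3 and 8 counts in SEFA-6179 replicates 1 to 5, and 11, 7, 30, 19, 12 and 10 counts in MCT replicates 1 to 6. SEFA-6179 replicates 3 and 4 lay below every MCT library on the CPM scale, and the other 3 overlapped with MCT. The mean with MCT was 0.75 ± 0.41 CPM (SD, n = 6), and with SEFA-6179 it was 0.37 ± 0.15 CPM (SD, n = 5). The log2 fold change was -1.01 ± 0.49 (SE), with a 95% interval from -2.06 to 0.039 and an edgeR adjusted p of 0.482, so a difference was not shown at this depth. The highest value, 30 counts, belonged to MCT replicate 3.

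GRHL1, a regulator of desmosomal cadherins in skin, lies on chromosome 3 from 126464198 to 126511211 and did not pass the filter. It had 7, 1, 0, 7 and 1 counts in SEFA-6179 replicates 1 to 5 and 0, 6, 10, 1, 6 and 3 counts in MCT replicates 1 to 6. The 2 libraries at 0, SEFA-6179 replicate 3 and MCT replicate 1, allow levels of up to 0.155 and 0.149 CPM (3 counts, counting error only). Both groups spanned nearly the same range. GRHL3, which acts in skin barrier formation and neural tube closure, averaged 1.08 ± 0.54 CPM (SD, n = 5) under SEFA-6179 and 1.13 ± 0.66 CPM (SD, n = 6) under MCT. Its log2 fold change of -0.061 ± 0.46 (SE) did not pass (edgeR adjusted p = 0.98), and it turned positive, to 0.28, without MCT replicate 3.

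Summed over GRHL1, GRHL2 and GRHL3, the FPKM was between 0.32 and 0.60 with SEFA-6179 and between 0.38 and 1.23 with MCT. The top of that range was MCT replicate 3, with 87 reads over the 3 genes against 29 to 38 in the other MCT libraries. That library was also the highest of all 11 for TFCP2L1. In each library the 3 grainyhead-like genes together were thus below UBP1 alone, which was at 3.82 FPKM or more.

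The family gene without a symbol, ENSSSCG00000017507 on chromosome 12 from 22975070 to 22987044, varied widely within MCT. It was at 6.20, 4.24, 20.7, 5.69, 1.46 and 12.2 CPM in MCT replicates 1 to 6, and at 4.71 to 8.13 CPM over the SEFA-6179 libraries. The SEFA-6179 libraries fell inside the MCT range, and its log2 fold change of -0.56 ± 0.50 (SE) did not pass (edgeR adjusted p = 0.744). Its order over the libraries resembled that of TFCP2L1: on log2 CPM, Pearson's r between them was 0.97 over 6 MCT libraries and 0.91 over 11 libraries after each group's mean was subtracted. This pair was chosen after its values were seen, and no p is given.

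CDH1 encodes E-cadherin, the adhesion molecule of epithelial cells and a textbook target of grainyhead-like factors. It was at 439, 318, 393, 523 and 328 CPM in SEFA-6179 replicates 1 to 5, and at 917, 885, 651, 749, 790 and 683 CPM in MCT replicates 1 to 6. The groups did not overlap, SEFA-6179 being lower, and like TFCP2L1 the gene was known to differ before it was looked at here. Both genes were lower with SEFA-6179. Within MCT, replicates 3 and 6, with the most TFCP2L1, had the least CDH1, while in the other 4 libraries no such order was seen. The edgeR call of CDH1 (adjusted p = 0.0478) was kept in 2 of 11 fits without 1 library, where the adjusted p ran from 0.0444 to 0.158. It was also lost with the replicate block (edgeR adjusted p = 0.134), with EIF1AY detection as a covariate (0.0939) and without both MCT replicate 5 and SEFA-6179 replicate 4 (0.0623).

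A correlation over all 11 libraries together would restate the group difference that chose both genes, so none is given. Within MCT, Pearson's r of log2 CPM was -0.76 (exact permutation p = 0.0806, two-sided, n = 6) and Spearman's rho was -0.77 (exact permutation p = 0.103). Without MCT replicates 3 and 6, the libraries farthest from the median, r was 0.0015, so the negative relation rests on those libraries. Over 11 libraries with each group's mean subtracted, r was -0.24 (exact permutation within groups, p = 0.437) and rho was -0.24 (exact permutation p = 0.543). Without MCT replicates 3 and 5, the farthest there, and with the groups centred again, r was -0.067. With SEFA-6179 there are only 5 libraries, too few for a correlation of their own. There replicate 4 was highest and replicate 2 lowest for both genes, while replicate 5 was next highest in TFCP2L1 and next lowest in CDH1.

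**Figure D3:**
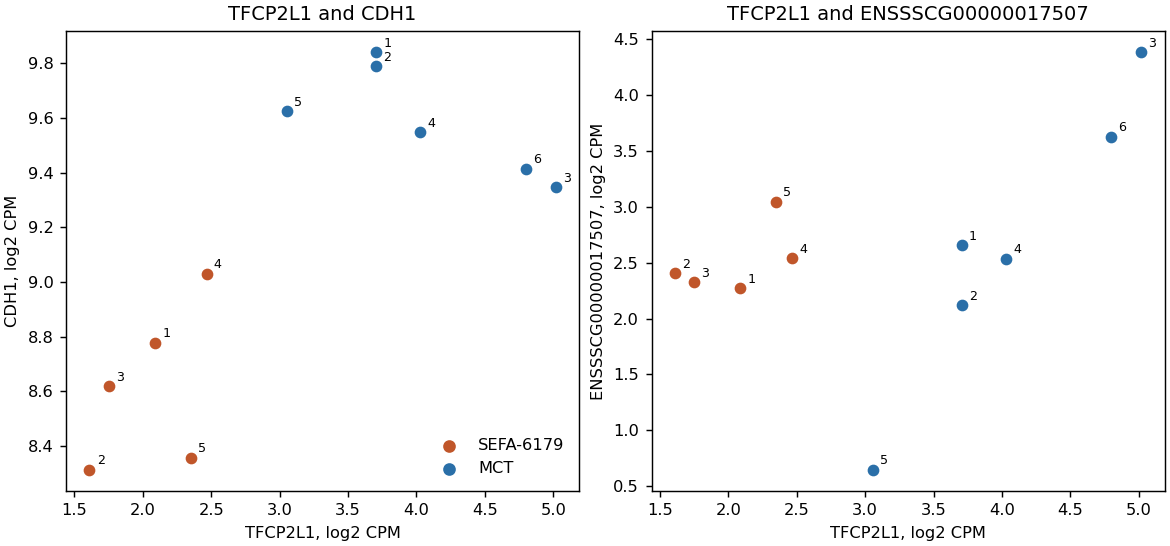
TFCP2L1 (x axis, log2 CPM) against CDH1 (left) and the unnamed family gene ENSSSCG00000017507 (right), 1 point per library, numbered by replicate and coloured by group. CDH1 is lower in all SEFA-6179 libraries, yet within MCT its lowest points are replicates 3 and 6, which are highest in TFCP2L1. The unnamed gene rises with TFCP2L1 within MCT, with r = 0.97.

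Bile duct cell markers were set beside TFCP2L1 as a list of 18 genes, of which 15 are in the table and were tested. KRT19, TSPAN8 and FXYD2 were not matched by symbol. Of the tested markers 14 had a log2 fold change below 0, against 50.2% of all tested genes, and the median was -0.69, against -0.0015 over all genes. By edgeR 0 passed over all genes, with 6 at an unadjusted p below 0.05, all lower, against 10.8% of all tested genes at that p in either direction. DESeq2 called 4, CD24, SOX9, EPCAM and ANXA4, where it called 1.78% of all genes it tested. Limma with library weights called 1, CD24, and 0.454% of all genes. Their summed level was 195 to 305 CPM with SEFA-6179 and 212 to 520.1 CPM with MCT, so the groups overlapped.

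CD24, a surface glycoprotein of duct and progenitor cells, was nearest to the threshold with 3.39 ± 1.19 CPM under SEFA-6179 and 8.43 ± 1.97 CPM under MCT (log2 fold change -1.31, edgeR adjusted p = 0.0539). It was the 1 marker of 15 without overlap between the groups, and SEFA-6179 libraries lay wholly below MCT libraries in 0.819% of tested genes. SOX9, the transcription factor of bile duct identity, averaged 1.85 ± 0.64 CPM under SEFA-6179 and 5.62 ± 2.85 CPM under MCT, with an edgeR adjusted p of 0.148. Without MCT replicate 6, which had 1.40 CPM of SOX9, its edgeR adjusted p was 0.0355, and in the other 10 fits without 1 library it ran from 0.118 to 0.354. The fitted difference of TFCP2L1, -2.15, was larger in size than that of any of the 15 markers, the nearest being SOX9 at -1.60. TFCP2L1 was chosen for its difference, so nothing is read from this order, and whether the 2 genes differ in it was not tested.

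**Figure D4:**
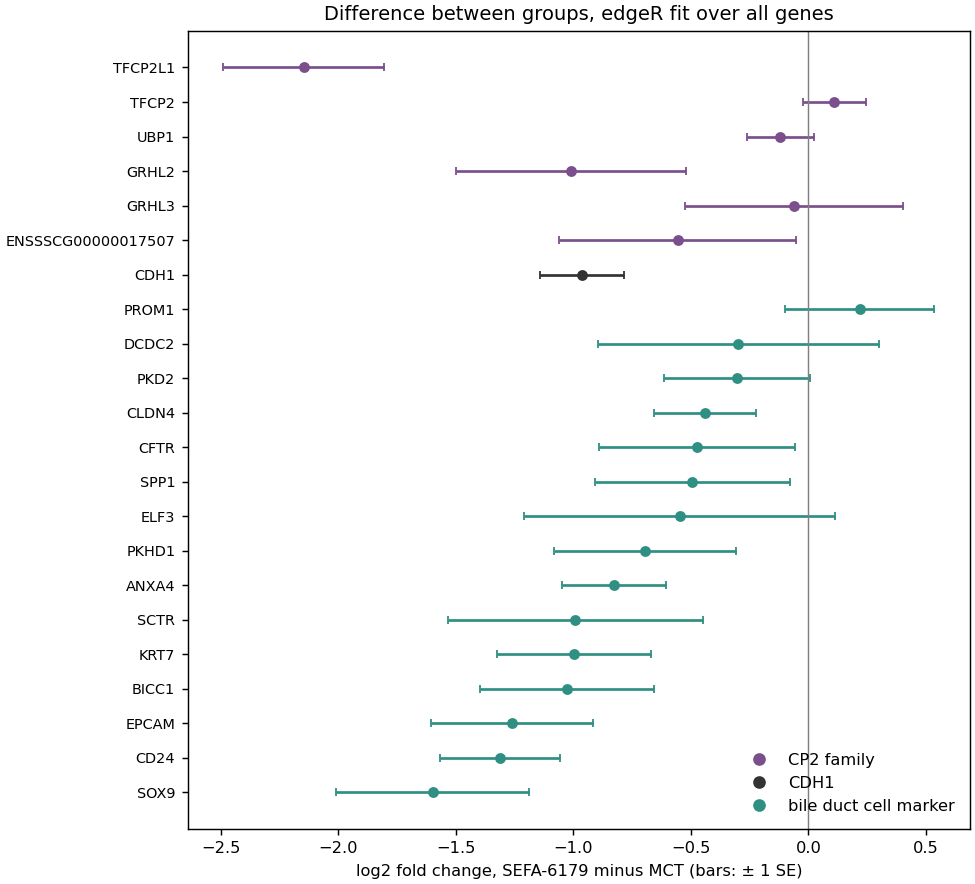
Log2 fold change of SEFA-6179 minus MCT (x axis) with bars of ± 1 SE from the edgeR fit over all genes, for the tested CP2 family genes, CDH1 and 15 bile duct cell markers. TFCP2L1, the gene chosen for its difference, lies farthest left at -2.15, while TFCP2 and UBP1 lie within 0.12 of 0. All markers but PROM1 lie left of 0.

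Within MCT the bile duct markers stood on both sides of 0 in their relation to TFCP2L1. Of 15 markers 7 had a positive r and 8 a negative one, with a median of -0.0075 and a range from -0.91 to 0.88. Over 11 group-centred libraries 8 were positive, the median was 0.022, and the range was -0.71 to 0.49. These directions rest on MCT replicates 3 and 5: without them, and with the groups centred again, r was below 0 for all 15 markers, with a median of -0.55 and a range from -0.90 to -0.015 (n = 9). PKHD1, the fibrocystin gene of duct cell cilia, for example, went from 0.17 to -0.90, and CFTR, the chloride channel of duct cells, from 0.11 to -0.84. Within MCT alone the pair left out was another, replicates 3 and 6 (n = 4), so the result cannot be set against that one. There 8 markers were positive and 7 negative, with a median of 0.29 and a range from -0.90 to 0.95. PKHD1 went from 0.27 over all 6 MCT libraries to 0.85, and CFTR from 0.38 to 0.76. With CDH1 the 15 markers made 16 relations. By Pearson's r there were 2 at an unadjusted exact permutation p below 0.05 within MCT and 2 over the centred libraries. By Spearman's rho there were 4 within MCT (SOX9, SPP1, PKD2 and PROM1) and 0 over the centred libraries. After Benjamini-Hochberg adjustment there were 0 by either measure. The lowest adjusted values were 0.144 and 0.349 for r, and 0.0667 and 0.437 for rho.

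The strongest negative relation within MCT was with SPP1, osteopontin, a secreted protein of duct cells and macrophages (r = -0.91, exact permutation p = 0.0181, adjusted 0.144, n = 6; rho = -0.94, exact permutation p = 0.0167, adjusted 0.0667). Its r was -0.81 without MCT replicates 3 and 6, and -0.64 over the centred libraries (exact permutation p = 0.0445, adjusted 0.349). SOX9 was next, with r = -0.81 within MCT (exact permutation p = 0.0514, adjusted 0.274, n = 6; rho = -0.94) and -0.71 over the centred libraries (exact permutation p = 0.0384, adjusted 0.349). For CD24, r was -0.40 within MCT (exact permutation p = 0.435, n = 6). At the other end stood PROM1, a progenitor surface protein named here after its values were seen, with r = 0.88 within MCT (exact permutation p = 0.0111, adjusted 0.144, n = 6) and 0.22 over the centred libraries. Among the 15 markers, SOX9 and CD24 had the most negative fold changes, and their coefficients with TFCP2L1 within MCT were negative. That of CD24 was -0.014 without MCT replicates 3 and 6. Of the 15 markers, 7 had positive coefficients within MCT, so nothing is read from these 2.

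**Figure D5:**
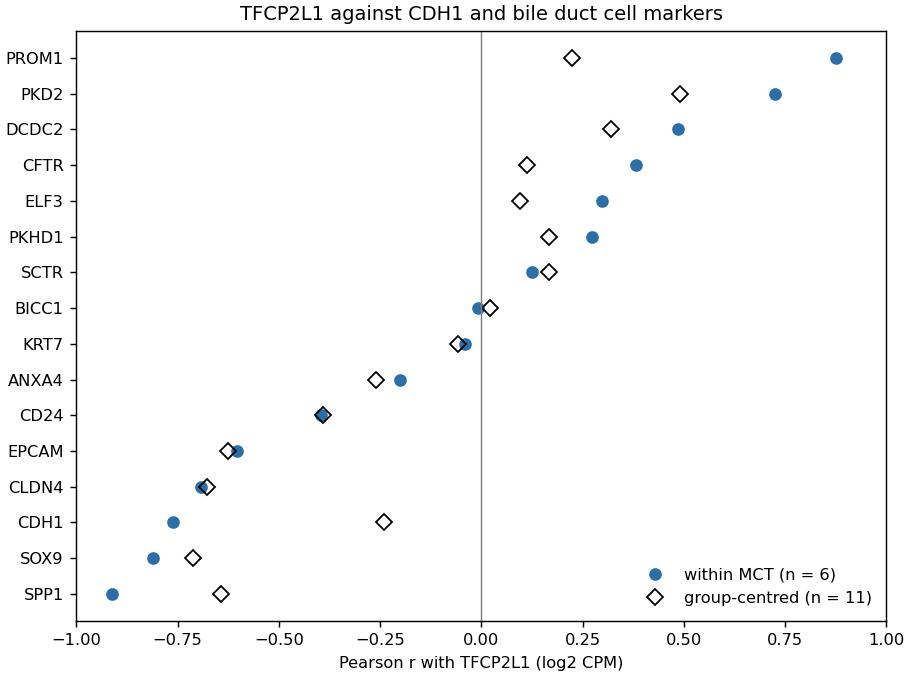
Pearson's r of TFCP2L1 with CDH1 and each of 15 bile duct cell markers (rows), on log2 CPM, within 6 MCT libraries (filled circles) and over 11 libraries after subtracting each group's mean (open diamonds). Values spread on both sides of 0, from -0.91 for SPP1 to 0.88 for PROM1 within MCT, and no relation passed after adjustment. Without MCT replicates 3 and 5 the centred values of all 15 markers are below 0, which is not drawn. Also not drawn are the values within MCT without replicates 3 and 6 (n = 4), with 8 markers positive and 7 negative.

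The named genes with the highest r with TFCP2L1 over the group-centred libraries were not on the bile duct list. Among 11153 genes with a symbol and a mean of at least 1 CPM, the top 5 were TRIT1 (0.95), GPT2 (0.89), HGD (0.89), UQCRFS1 (0.89) and LNPK (0.86). The top of so many coefficients is high by selection alone, and no p is given. ENSSSCG00000017507, at 0.91, was left out for lack of a symbol. Within MCT the r of these 5 genes ran from 0.91 to 0.98. Over the 5 SEFA-6179 libraries, too few for a correlation of their own, it ran from 0.29 (LNPK) to 0.92 (HGD). TRIT1 modifies tRNA, GPT2 is a mitochondrial alanine aminotransferase, HGD breaks down homogentisate in tyrosine catabolism, UQCRFS1 is the Rieske subunit of respiratory complex III, and LNPK shapes the endoplasmic reticulum. The same MCT library, replicate 5, was lowest for all 5 genes and for TFCP2L1, and replicate 3 was highest for 4 of them. Unlike TFCP2L1, none was lower with SEFA-6179. Their log2 fold changes were all above 0, from 0.13 to 0.73, and none passed (edgeR adjusted p from 0.402 to 0.905). GPT2, for example, averaged 86.5 ± 53.9 CPM (SD, n = 5) under SEFA-6179 and 68.3 ± 68.4 CPM (SD, n = 6) under MCT.

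Epithelial genes known as downstream of grainyhead-like factors were taken as a list of 22, of which 18 were tested. Of these 16 lay below 0, against 50.2% of all tested genes, with a median of -0.44. CDH1 alone passed over all genes by edgeR, which called 0.219% of them. At an unadjusted p below 0.05 by edgeR there were 7, all lower, against 10.8% of all tested genes in either direction. DESeq2 called 4, adding CLDN7, EPCAM and OVOL1, and 1.78% of all genes it tested. Limma with library weights called 2, CDH1 and CLDN7, and 0.454% of all genes. Since CDH1 was known to differ beforehand, nothing is read from its calls. The counts of 16 below 0 and of 7 at an unadjusted p below 0.05 include it. OVOL1, an epithelial zinc finger repressor, had the next smallest p, with a mean of 0.070 ± 0.13 CPM (SD, n = 5) under SEFA-6179 and 1.26 ± 0.93 CPM (SD, n = 6) under MCT. It did not pass by edgeR (adjusted p = 0.131), though it did by DESeq2 (adjusted p = 0.00315), and MCT replicate 6, at 0.0585 CPM, lay within the SEFA-6179 range. ESRP1, OVOL2 and RAB25 did not pass the filter. The list includes CDH1, CLDN4 and EPCAM, and the last 2 are also on the bile duct list.

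Transcription factors of epithelial state, such as FOXA2, ZEB1 and SNAI2, were split, with 8 of 14 tested genes above 0, a median of 0.041 and 0 past the threshold by edgeR. At an unadjusted p below 0.05 by edgeR there were 2, OVOL1 and SOX9. A count of 2 in 14 is near the 10.8% of all tested genes at that p. DESeq2 called the same 2, where it called 1.78% of all genes it tested. The circuit that carries TFCP2L1 in naive stem cells, from LIF receptor and STAT3 signalling to pluripotency factors and WNT effectors, had 14 of 18 genes in the table and 12 tested. Its core partners ESRRB and NANOG had at most 5 counts over all libraries. Of those tested, 9 lay above 0, with a median of 0.17, and 0 passed by edgeR, DESeq2 or limma, with 2 at an unadjusted p below 0.05 by edgeR, which is near the 10.8% of all tested genes. These were LIFR, a subunit of the LIF receptor (20.6 ± 3.63 CPM with SEFA-6179 and 13.9 ± 3.59 with MCT, edgeR adjusted p = 0.301), and STAT3 (336 ± 89.5 and 230 ± 66.5 CPM, adjusted p = 0.371). Their log2 fold changes were 0.57 and 0.55.

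Known partners and targets of TFCP2 and UBP1 numbered 8, with 7 tested, 5 of them below 0, a median of -0.17 and 0 past the threshold by edgeR, DESeq2 or limma, and by edgeR 0 at an unadjusted p below 0.05. TYMS, thymidylate synthase and a target of TFCP2 at the start of DNA synthesis, averaged 4.97 ± 2.31 CPM (SD, n = 5) under SEFA-6179 and 7.38 ± 1.58 CPM (SD, n = 6) under MCT (edgeR adjusted p = 0.49). SPP1 was at 25.1 ± 13.6 and 35.3 ± 18.1 CPM (edgeR adjusted p = 0.723).

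Markers of other cells in a piece of liver were measured beside these results. Endothelial markers lay above 0 in 7 of 7 cases (median 0.36, summed level 358 to 655 CPM with SEFA-6179 and 323 to 564 CPM with MCT), and stellate cell and fibroblast markers below 0 in 6 of 8 (median -0.26, 473 to 765 and 642 to 953 CPM). Macrophage markers summed to 123 to 1409 CPM and 189 to 816 CPM, with 6 of 7 above 0. T and NK cell markers summed to 8.93 to 25.9 and 8.78 to 22.0 CPM, with 6 of 6 above 0. Erythroid markers summed to 224 to 493 and 106 to 414 CPM, with 3 of 4 below 0. Over these 5 lists 0 of 32 tested markers passed by edgeR, DESeq2 or limma. At an unadjusted p below 0.05 by edgeR there were 11, a larger share than the 10.8% of all tested genes. Lower among them were 4 stellate cell and fibroblast markers, and the rest were higher. Of the pancreas and gut markers, 3 were tested, all below 0 and 0 past the threshold by edgeR, DESeq2 or limma, with a summed level of 11.96 to 38.5 and 22.0 to 85.8 CPM. Of these 1 had an unadjusted p below 0.05, VIL1, villin of the brush border, at 19.7 ± 10.4 CPM (SD, n = 5) and 46.7 ± 29.7 CPM (SD, n = 6), and its adjusted p by edgeR was 0.369. The part of any of these cells in the TFCP2L1 difference was not tested.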

How the data were processed

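Liver RNA of 11 libraries was analysed from 1 deposited table. Per the file headers, the authors deposited raw counts per gene, FPKM, their own log2 fold change and p-value, and a normalized signal, in which each count is scaled by a size factor of its library. DESeq2 1.20.0, featureCounts 1.5.0-p3, HISAT2 2.0.5 and StringTie 1.3.3b appear, without roles, in the submitters' processing notes. No source used here gives the genome build or strand setting.

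The main test was that of edgeR 4.0.16 (R 4.3.3) on the raw counts (filterByExpr with a minimum count of 10, TMM scaling, robust quasi-likelihood test, two-sided, Benjamini-Hochberg over 13671 genes, threshold 0.05). Each standard error is the fold change over the root of F. Correlations used log2 CPM (prior count 2) and exact permutation of pairings in Python 3.11.15. CPM values are after TMM scaling. FPKM served to order genes within libraries. Alternatives used DESeq2 1.42.0 and limma 3.58.1. The scripts were first tested on simulated data. P-values measure only the spread between these libraries.

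Members and lists were chosen with earlier results of these data known. Some genes first placed on the lists were later left out of them and are not reported here. Genes named are the members, GRHL3, CDH1 and list genes past the threshold. The rule also names the 2 with the smallest p in each list, and the 5 genes with a symbol most like TFCP2L1. Genes outside this rule, named for a count of 5 or fewer or as examples of a list, were chosen after their values were seen. The table names 14022 genes, and a reference list supplied 779 further symbols.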

Additional observations from a re-analysis of the deposited data

Results flagged for a closer look

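In 1 of 30 groups looked at, a library stood far from the rest of its group, where chance gives about 1.5. OVOL1, an epithelial repressor, reached 0.289 CPM in SEFA-6179 replicate 2, while the other SEFA-6179 libraries had at most 0.0595 CPM. At this depth that is a handful of reads.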

How the results depend on the processing

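The log2 fold change of TFCP2L1 stayed between -2.40 and -1.87 in 20 alternatives. It kept its call in 12, among them DESeq2 size factors, both other count filters, the DESeq2 Wald test and limma with library weights. All 20 reuse the libraries whose difference chose the gene, so the kept calls add no support to it. The 8 losses were the replicate block (-1.87, edgeR adjusted p = 0.122), EIF1AY detection as a covariate (-1.88), the test without both MCT replicate 5 and SEFA-6179 replicate 4 (-2.40, adjusted p = 0.0533), and 5 of the 11 tests that left out 1 library, whose values ran from -2.30 to -1.91. TFCP2, UBP1 and GRHL2 kept their direction and stayed uncalled wherever they were tested. GRHL2 passed the filter in only 6 of the 11 tests without 1 library, and GRHL1 was fitted only without the low-count filter and by DESeq2 (log2 fold change -0.23 ± 1.03 SE by edgeR).

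The number of genes called was 30. It was 255 by DESeq2, 62 by limma with library weights, 8 with the replicate block, 6 with the EIF1AY covariate and 1 without MCT replicate 5 and SEFA-6179 replicate 4. With 1 library left out it ran from 0 (without SEFA-6179 replicate 5, with 1184 genes under 0.05 before adjustment by edgeR, or MCT replicate 4, with 1258) to 53 (without SEFA-6179 replicate 3). The cause was not tested. The replicate numbers are not stated to pair samples: deviations of same-numbered libraries correlated between -0.15 and 0.20, and 1 of 5 SEFA-6179 libraries was most like its own number. GRHL3 turned positive with the replicate block (0.049) and when SEFA-6179 replicate 1 (0.13) or 5 (0.081), or else MCT replicate 3 (0.28) or 6 (0.022), was left out. Its range with 1 library left out was -0.29 to 0.28. CDH1 kept its sign throughout, and its call in 2 of 11 tests without 1 library. It lost it with the replicate block, with the EIF1AY covariate and when SEFA-6179 replicate 4 and MCT replicate 5 were dropped together. The r of TFCP2L1 with CDH1 within MCT was 0.0015 without MCT replicates 3 and 6. Over the group-centred libraries it ran from -0.52 to -0.035 with 1 library left out. Depth limits GRHL1 and GRHL2, at 0 to 30 counts a library.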
